A study of Homo sapiens with 22 samples.

Results

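Levels of 10 genes of the G1 control of the cell cycle were followed in the 3 single-cell experiments and in the chromatin data of this melanoma study. They are the D-type cyclins CCND1, CCND2 and CCND3, their partner kinases CDK4 and CDK6, the CIP/KIP inhibitors CDKN1A (p21), CDKN1B (p27) and CDKN1C (p57), the retinoblastoma gene RB1, and CCNG2. They were chosen by symbol, as 10 of 33538 genes in the table of the first experiment and of 36601 genes in each of the others. All 10 symbols were found in each table. The rule used no measured level, but the members were chosen with earlier results of these data known.

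D-type cyclins bind CDK4 and CDK6 in response to growth signals, and the active kinases phosphorylate the retinoblastoma protein, which then releases E2F factors that drive entry into S phase. The CIP/KIP proteins inhibit cyclin-dependent kinases, those with CDK2 above all, and INK4 proteins inhibit CDK4 and CDK6. CCNG2 is an unconventional cyclin that is best known from cells that leave or slow the cycle. In melanoma with mutant BRAF, CCND1 is a well-known output of ERK signalling.

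The study asked how melanoma cells that have seen no BRAF inhibitor move between a drug-susceptible state and a rare primed state that survives targeted therapy more often. The first experiment holds 12531 cells of WM989, a BRAF-mutant melanoma line, in 8 chip wells (4 of replicate r1 and 4 of r2), and the second holds 1449 cells of WM983B, another melanoma line, in 1 library. The third experiment holds 40021 WM989 cells in 8 libraries, 2 for each of 4 treatments: untreated, TGFB1 (the ligand), TGFBRi (LY2109761, an inhibitor of TGF-beta receptors) and PI3Ki (GDC-0941, an inhibitor of PI3 kinase). ATAC-seq was made of WM989 cells sorted as EGFR-high, NGFR-high, EGFR/NGFR-high or labelled Mix, with 3 libraries each. The labels do not say what Mix holds, and the study's methods list cells negative for both markers as the fourth sorted population.

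Both lines were clones grown from single cells, so each line stands for 1 clone, and no group received a BRAF or MEK inhibitor. Cells of the first experiment carried a transcribed lineage barcode and were sorted before they expanded, but the cell labels do not say which well held which sort. By the study's methods each culture was divided over a pair of chip wells, so the 8 wells hold pairs of technical splits and are not 8 independent samples. In r1, primed cells made up 56.9% and 62.4% of cells in wells 1 and 2 and 7.87% and 6.85% in wells 3 and 4. In r2 they made up 79.7% and 76.9% in wells 5 and 6 and 9.17% and 9.42% in wells 7 and 8. In the third experiment the sample labels give each treatment once as Mix and once as Primed, while the cells are labelled r1 and r2. Which is which is not stated, so r1 and r2 may have started from different populations. States are those of the authors' clusters, and a level below is in counts per 1e6 UMIs (molecules counted after removal of PCR copies) over the cells summed, written CPM. It counts 3′ ends and ranks no gene against another. The 3 tables hold a median of 53571, 66668 and 16321 UMIs per cell. In the first experiment 19 cell barcodes occurred in more than 1 well (38 cells), in the third 194 occurred in more than 1 library (388 cells), and in the second 0.

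The labelled states were checked against their markers. In WM989 the 7 melanocytic markers summed to 4882 CPM in drug-susceptible and 203.5 CPM in primed cells, and the 6 primed markers to 300.2 and 4489 CPM. The states of WM983B lay nearer to each other, with 2055 and 747.2 CPM of the melanocytic and 1459 and 3241 CPM of the primed markers, and SOX10, a melanocyte lineage factor, at 208.1 and 191.5 CPM. Markers of other cell types were summed too. Over the first experiment the 4 fibroblast markers summed to 34.3 CPM in drug-susceptible and 70.5 CPM in primed cells, the 3 endothelial markers to 0.498 and 25.3 CPM, and the epithelial and leukocyte markers to at most 1.06 CPM. In WM983B the 4 fibroblast markers summed to 101.8 CPM in drug-susceptible and 84.9 CPM in primed cells, of which LUM alone gave 99.9 and 83.3 CPM, and COL3A1 had 0 UMIs. The 4 leukocyte markers summed to 11.9 and 21.8 CPM there, again nearly all from 1 gene (11.7 and 21.6 CPM), and the endothelial and epithelial markers to at most 0.965 CPM. In the treatment experiment the endothelial markers summed to 0.442 and 10.4 CPM, the fibroblast markers to 27.4 and 17.3 CPM, and the epithelial and leukocyte markers to at most 0.829 CPM. The fibroblast sum thus turned against the first experiment, but no single fibroblast marker did. In both experiments LUM was lower in primed cells, and DCN, PDGFRA and COL3A1 were higher. PDGFRA had 47.3 CPM in primed cells of the first and 3.11 CPM in those of the treatment experiment. The part of these genes in the results was not tested.

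The 250 bases before the annotated start are shown for 5 members, because these windows carry the peaks of open chromatin described at the end and differ in their motifs. They are from RefSeq on GRCh38.p14, written 5′ to 3′ on the strand of the gene. Capitals mark each match, on either strand, to a GC box (GGGCGG) or to an E-box (CACGTG).

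CDKN1A (chr6:36678464-36678713, plus strand): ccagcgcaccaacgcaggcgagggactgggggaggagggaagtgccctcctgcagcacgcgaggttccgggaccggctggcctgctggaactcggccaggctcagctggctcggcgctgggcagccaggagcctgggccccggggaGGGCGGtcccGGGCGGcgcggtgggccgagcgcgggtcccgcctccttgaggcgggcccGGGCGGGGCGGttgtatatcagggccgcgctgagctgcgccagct

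CDKN1B (chr12:12717118-12717367, plus strand): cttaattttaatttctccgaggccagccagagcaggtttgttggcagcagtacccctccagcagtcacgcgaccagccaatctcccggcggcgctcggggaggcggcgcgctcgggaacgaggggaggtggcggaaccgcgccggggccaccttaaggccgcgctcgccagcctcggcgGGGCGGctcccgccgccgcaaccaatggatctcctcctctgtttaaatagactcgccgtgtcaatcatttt

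CCNG2 (chr4:77156957-77157206, plus strand): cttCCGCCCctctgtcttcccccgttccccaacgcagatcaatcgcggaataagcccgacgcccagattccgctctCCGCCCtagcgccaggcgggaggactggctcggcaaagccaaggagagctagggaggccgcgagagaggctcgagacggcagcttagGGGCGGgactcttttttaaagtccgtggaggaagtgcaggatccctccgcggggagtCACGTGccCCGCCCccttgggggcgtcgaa

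CDK4 (chr12:57752311-57752560, minus strand): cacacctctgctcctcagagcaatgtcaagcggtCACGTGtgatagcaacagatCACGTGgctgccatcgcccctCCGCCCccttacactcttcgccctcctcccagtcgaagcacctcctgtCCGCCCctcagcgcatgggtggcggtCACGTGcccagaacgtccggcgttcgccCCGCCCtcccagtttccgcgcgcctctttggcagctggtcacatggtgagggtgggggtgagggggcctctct

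CDK6 (chr7:92836574-92836823, minus strand): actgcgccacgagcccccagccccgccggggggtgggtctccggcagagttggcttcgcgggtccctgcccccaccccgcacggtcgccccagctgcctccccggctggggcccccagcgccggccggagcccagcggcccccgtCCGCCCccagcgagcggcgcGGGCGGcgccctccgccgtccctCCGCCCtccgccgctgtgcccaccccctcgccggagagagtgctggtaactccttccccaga

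The table of promoters used here held 7 of the 10 members, 6 of them with a window at the annotated start. CCND1, CCND2 and CDKN1C had no entry, and RB1 had an entry at an internal start. CDK4 had 3 E-box matches, at 216, 196 and 101 bases before its start, and CCNG2 had 1, at 30 bases. An E-box occurred in 6.34% of 35116 windows of this length. GC boxes stood in all 6 member windows and in 42.6% of all windows, with 4 matches in CDKN1A (a pair of them overlapping), 4 in CCNG2, 3 in CDK4, 3 in CDK6, 2 in CCND3 and 1 in CDKN1B. CCND3 also had 1 TEAD motif (GGAATG, 11.9% of windows). Letters of 5 other motifs were searched on both strands, and none stood in the 6 windows. The AP-1 letters TGANTCA stood in 6.57% of all windows and the FOXO letters TGTTTAC in 2.98%. For the E2F letters TTTNNCGC the share of all windows was 5.92%, and for the TATA letters TATAAA it was 10.7%. The SMAD letters GTCTAGAC were in 0.182% of windows. A match is a description of letters and not of a bound site.

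Between the states of WM989, CCND1, CDKN1A, CDKN1C and CCNG2 were higher in primed cells, and CDK6 was lower. Since clusters were called from the same counts, the states are compared without a test. Of the 10 members 9 reached the minimum of 1 CPM in either state, and 4 of these were more than 1.5 times higher in primed cells in both replicates (CCND1, CDKN1A, CDKN1C and CCNG2), beside 18.8% of all 13194 genes over the minimum. A ratio below 1 by the same factor was found for 1 member (CDK6), beside 13.5% of genes.

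CCND1, the D-type cyclin that ERK signalling drives, stood at 4100 CPM in primed cells and 445 CPM in the others of the first experiment. In the 8 wells the primed cells had 4231, 3792, 4037 and 4118 CPM in r1 and 4070, 4420, 4243 and 4523 CPM in r2. The drug-susceptible cells of the same wells had 501.5, 442, 380.3 and 356.5 CPM in r1 and 685.5, 626.6, 534.5 and 526.3 CPM in r2. The primed cells of every well were above the drug-susceptible cells of every well, and relative to its size the primed level varied less between wells. In each replicate the drug-susceptible level was higher in the pair of wells rich in primed cells than in the other pair. The cause of this was not tested. The ratio was 10.2 in r1 and 7.86 in r2, and it was 9.01 in G1 cells, 7.69 in S cells and 10.8 in G2M cells. The annotated 3′ end of CCND1 overlaps LTO1 on the opposite strand, and whether the counting used strand is not given in the sources used here.

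CCND3 hardly separated the states in the sums over all phases, with 28.7 CPM in the primed and 24 CPM in the drug-susceptible state. It was higher in primed cells in 5 of 8 wells, with well ratios from 0.948 to 1.29. Within a phase, over both replicates summed, its ratio was 1.54 in G1, 1.49 in S and 1.28 in G2M cells. In G1 cells CCND3 had 22.3 against 15.3 CPM in r1 and 30.6 against 21.05 CPM in r2. Fewer primed than drug-susceptible cells were in S phase, where CCND3 was highest, and the part of this in the sums was not tested. CCND2, the third D-type cyclin, gave 7 UMIs in the 12531 cells, 0 in WM983B and 2 in the treatment experiment. Its annotated 3′ end lies inside another protein-coding gene on the same strand, so reads that fit both genes may have been left out of the counts.

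CDK6 stood at 25.6 CPM in the primed and 76.9 CPM in the drug-susceptible state. The primed cells had 13.2, 15.7, 19.5 and 21.3 CPM in the wells of r1 and 33.8, 33.3, 45.8 and 46.6 CPM in those of r2. The drug-susceptible cells had 64.2, 56.7, 61.7 and 61.2 CPM in r1 and 97.7, 97, 106.5 and 99.7 CPM in r2. The states did not overlap, and in each state all r2 wells were above all r1 wells. Well ratios ran from 0.205 to 0.467, and over both replicates summed the ratio was 0.327 in G1, 0.383 in S and 0.315 in G2M. In G1 cells CDK6 had 16.1 against 63.3 CPM in r1 and 35.9 against 112.3 CPM in r2. CDK4, the other partner kinase, was lower in primed cells in 8 of 8 wells by a smaller factor, with 119.9 against 153.8 CPM and well ratios from 0.684 to 0.811. In S cells its ratio was 1.03. CDK4 overlaps TSPAN31 on the opposite strand at its 3′ end.

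CDKN1A, the p53-regulated inhibitor p21, had the largest ratio of the members, with 30.1 CPM in the primed and 1.21 CPM in the drug-susceptible state. The primed cells had 35.9, 31.5, 22.2 and 26 CPM in the r1 wells and 28.8, 27.9, 34.6 and 30.5 CPM in the r2 wells. The drug-susceptible cells lay between 0.677 and 1.94 CPM in all 8 wells. No well came near the other state, and well ratios ran from 16.2 to 32.8. Over both replicates summed the ratio was 41.8 in G1, 22.7 in S and 31.2 in G2M cells. In G1 cells CDKN1A had 30.25 against 0.507 CPM in r1 and 27.7 against 1.15 CPM in r2, so the replicates differed in this ratio.

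CDKN1B, which encodes p27, was higher in primed cells in 8 of 8 wells, with well ratios from 1.12 to 1.42, but its wells overlapped between states. Summed over wells it had 59 against 40.1 CPM, with ratios of 1.63 in r1 and 1.26 in r2. The summed r1 ratio lay above that of every single well. Drug-susceptible cells had 53.8 and 44.1 CPM in wells 1 and 2, which were rich in primed cells, and 32.6 and 29.1 CPM in wells 3 and 4. In r2 they had 54.2 and 54.2 CPM in wells 5 and 6 and 50.2 and 50.6 CPM in wells 7 and 8. The states drew on the wells in different shares, and the part of this in the sums was not tested. CDKN1C, which encodes p57, was scarce, with 642 UMIs in all primed and 580 UMIs in all drug-susceptible cells of the first experiment (3.34 and 1.04 CPM). Its ratio was above 1 in 7 of 8 wells. The primed cells of the r1 wells had 4.59, 4.77, 4.88 and 4.13 CPM and those of the r2 wells 2.32, 1.93, 0.781 and 1.66 CPM, so the primed level was higher in every r1 well than in any r2 well. The last pair of r2 wells had ratios of 0.709 (95% interval 0.279 to 1.51) and 1.14 (0.574 to 2.07), while the 4 wells of r1 had ratios from 2.96 to 5.17. That pair of r2 wells was poor in primed cells. So were wells 3 and 4 of r1, where the ratios were 5.14 and 5.17.

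RB1 was higher in primed cells in 7 of 8 wells (30.3 against 23.3 CPM), with a ratio of 1.22 in r1 and 1.27 in r2. In G1 cells the ratio over both replicates summed was 1.6, and neither replicate alone reached it. There RB1 had 21.7 against 14.1 CPM in r1 and 32.5 against 23.1 CPM in r2. CCNG2 was higher in 8 of 8 wells, with 10.5 against 4.89 CPM. Its primed cells had 8.91, 8.73, 10.2 and 5.5 CPM in the r1 wells and 13.3, 12.3, 12.3 and 11.1 CPM in the r2 wells, and its drug-susceptible cells lay between 3.07 and 5.7 CPM. The only overlap came from the last r1 well, where the ratio was 1.1. Counted in G1 cells only, 2 members had a ratio above 1.5 in both replicates (CCND1 and CDKN1A), beside 18.4% of genes, and CDK6 had one below 1 by that factor, beside 13.2%, so CDKN1C and CCNG2 did not keep their place in the count. Past a ratio of 2 in both replicates the same 2 members were higher, beside 12.1% of genes, and CDK6 was lower, beside 7.01%.

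**Figure D1:**
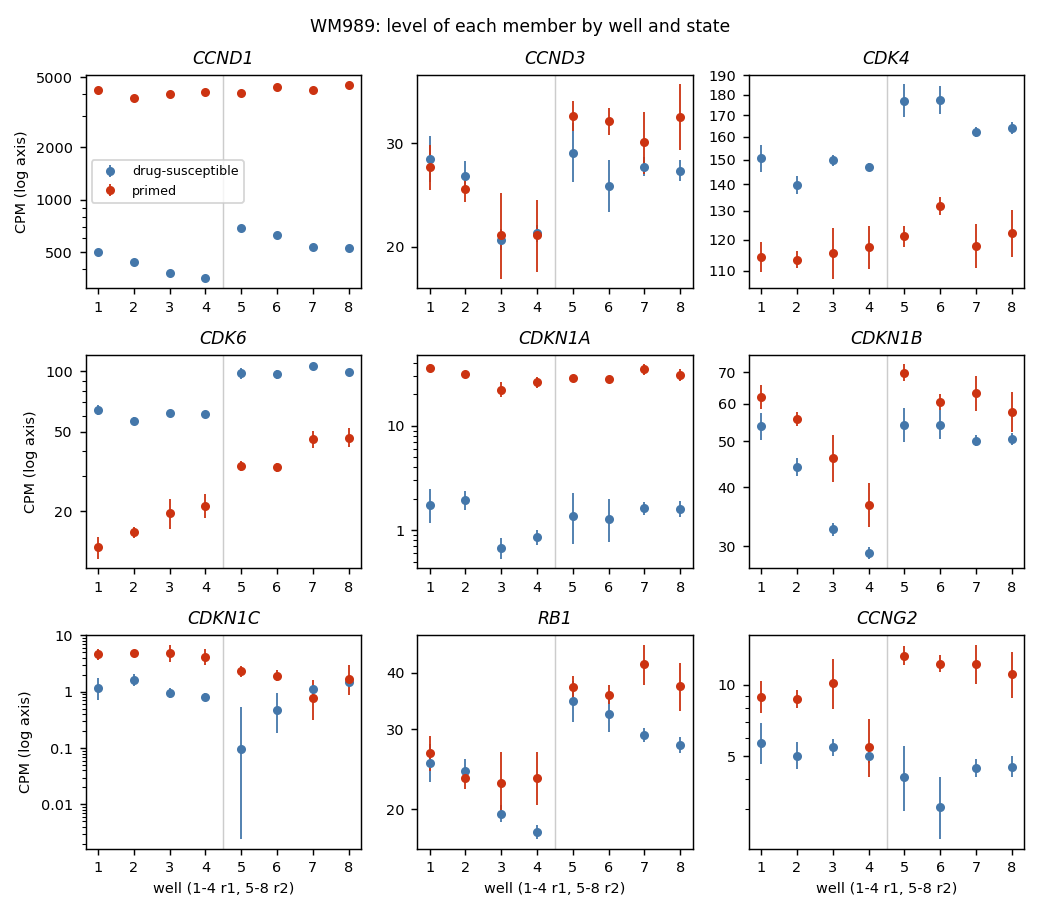
Level of 9 members in the 8 wells of the first WM989 experiment (x axis, wells 1 to 4 are r1 and 5 to 8 are r2) in CPM on a log axis, for drug-susceptible (blue) and primed (red) cells, with exact 95% Poisson intervals as bars. The states lie apart in every well for CCND1 (356.5 to 685.5 CPM against 3792 to 4523 CPM), CDKN1A, CDK4 and CDK6, and overlap for CCND3 and RB1.

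Single cells showed how far the states overlapped. The median cell had 3755 CPM of CCND1 in the primed and 345.4 CPM in the drug-susceptible state. Of 2843 primed cells 7.95% lay below the 95th percentile of drug-susceptible cells, and of 9688 drug-susceptible cells 10.7% lay above the 5th percentile of primed cells. The median cell had 14.9 CPM of CDK6 in the primed and 65.4 CPM in the drug-susceptible state, and 64.6% of drug-susceptible cells lay below the 95th percentile of primed cells (87.2 CPM).

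At least 1 UMI of CDKN1A was seen in 66.8% of primed cells (95% interval 65 to 68.5%) and in 5.57% of drug-susceptible cells (5.13 to 6.05%), at a median depth of 58253 and 52835 UMIs per cell. After each cell was thinned to 10000 UMIs, these shares were 24% and 1.08%. CDK6 had a UMI in 59.1% of primed cells against 92.7%, and in 18.5% against 50.7% of thinned cells. CCNG2 had one in 40.1% against 21.5%, and in 9.6% against 5.1% of thinned cells. No cell type that should lack these genes was in the samples, so the part of free RNA in the low shares was not tested. Primed cells with a CDKN1A UMI had 4246 CPM of CCND1 against 3695 CPM in primed cells without, and their median depth was 68812 against 43844 UMIs. In drug-susceptible cells these CCND1 levels were 582 and 434.9 CPM, at 64254 and 52250 UMIs. Depth moved with the split, and so did phase. Of primed cells with and without a CDKN1A UMI 72.5% and 76.1% were called G1, and of drug-susceptible cells 12.8% and 26.3%. The part of depth and phase in the differences was not tested.

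Clusters within a state differed as well. In the 3 primed clusters of the first experiment CCND1 stood at 4235, 3373 and 4252 CPM in clusters 2, 8 and 9, and CDKN1A at 29.3, 24 and 35.9 CPM. Cluster 9 also had the highest CDKN1B (79 CPM), RB1 (40.6 CPM), CCND3 (35.7 CPM) and CCNG2 (12.8 CPM) of the 11 clusters. In the 8 drug-susceptible clusters CCND1 ran from 331.9 to 585.1 CPM, CDKN1B from 28 to 68.2 CPM and CCNG2 from 2.2 to 8.24 CPM. Both were highest among them in cluster 6, and clusters 0 and 5 held the lowest values of both. CDK6 lay between 55.6 and 98 CPM in the 8 drug-susceptible clusters and between 23.7 and 35 CPM in the 3 primed clusters.

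Likeness to a member was ranked over the 22 sums of cluster and replicate in the first experiment, on log2(CPM + 1) centred within replicate. Only the 5741 genes with a mean of at least 20 CPM were ranked. Among them the genes most like a member were S100A11 (Pearson r = 0.983) and SLC16A6 (0.982) for CCND1, and RAB27B (0.988) and MYEOV (0.987) for CDKN1A. For CDK6 they were SLC7A6 (0.991) and PTPRS (0.975), and for CDK4 MRPL27 (0.954) and NUP188 (0.948). CDKN1B was most like TNKS2 (0.888) and VEZF1 (0.857), CCND3 most like PAK1 (0.896) and SLF2 (0.866), RB1 most like CHRAC1 (0.936) and H3F3B (0.904), CCNG2 most like CAMK2D (0.887) and RALGAPB (0.883), and CDKN1C most like TPP1 (0.82) and TNFRSF1A (0.813). The points share wells and the split into 2 states, so they are not independent.

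WM983B showed smaller ratios between its states. CCND1 stood at 223 CPM in the primed and 116.3 CPM in the drug-susceptible state (ratio 1.92), CDKN1A at 12.5 and 7.98 CPM (1.57), and CDKN1C at 2.09 and 1.28 CPM (1.63). These 3 members passed a ratio of 1.5, beside 7.77% of 13769 genes, and 0 members passed it downwards, beside 3.28% of genes. With 1 library there is no replicate check, and the primed cells of this line are the authors' clusters 0 and 2. Past a ratio of 2 over all phases there were 0 members higher and 0 lower, beside 2.87% and 1.37% of genes. In G1, S and G2M cells the ratio of CCND1 was 2.13, 1.98 and 1.65, that of CDKN1A 2.63, 1.48 and 1.68, and that of CDKN1C 1.79, 0.988 and 2.03. After thinning to 30000 UMIs, 23.9% of primed and 17.8% of drug-susceptible WM983B cells had a UMI of CDKN1A.

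CDK6 went the other way in WM983B, with 88.9 CPM in the primed and 59.5 CPM in the drug-susceptible state (ratio 1.5), where all 8 WM989 wells had a ratio below 1. This was carried by primed cluster 0 (94.6 CPM), since primed cluster 2 had 51.6 CPM, and drug-susceptible clusters 1 and 3 had 59.5 and 58.9 CPM. The difference between lines was not tested. Summed over all phases, CCNG2 (17 against 16.9 CPM), CDKN1B (11.6 against 11.5 CPM) and CCND3 (50.1 against 48 CPM) differed little between the states of WM983B. Within a phase the ratio of CCNG2 was 1.48 in G1, 0.695 in S and 1.16 in G2M cells. CDK4 was lower in primed cells of this line too, with 219 against 268.5 CPM. CCND2 had 0 UMIs in 1449 cells, which allows a share of cells with a UMI of up to 0.418% in drug-susceptible and 0.41% in primed cells.

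The untreated libraries of the third experiment gave a second view of WM989. The ratio of primed to drug-susceptible cells in r1 and r2 was 6.55 and 6.8 for CCND1, 34.6 and 21 for CDKN1A, 2.16 and 2.69 for CCNG2, and 1.75 and 1.67 for CDKN1B. CDK4 had 0.677 and 0.681. CDK6 had 0.811 and 0.638, both nearer to 1 than any well of the first experiment. These libraries held 94 and 165 primed cells.

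**Figure D2:**
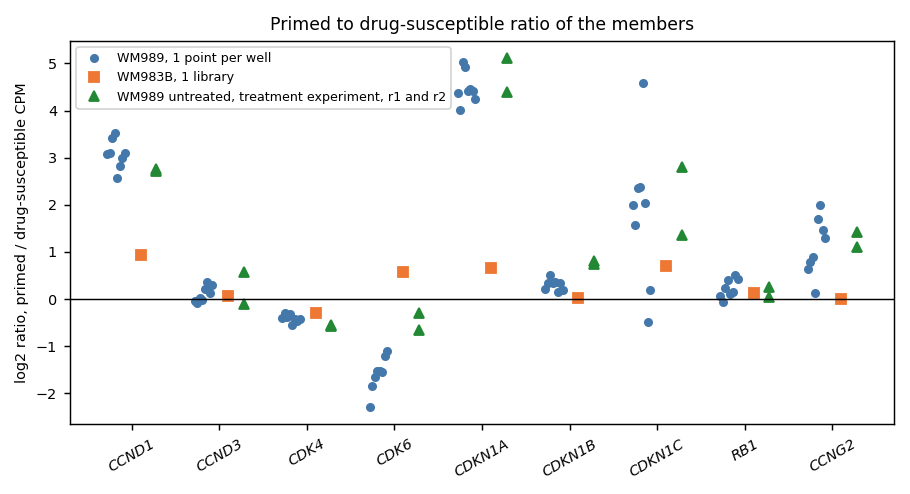
log2 of the ratio of primed to drug-susceptible CPM (y axis) for 9 members (x axis), with 1 blue point for each WM989 well, an orange square for the WM983B library and 2 green triangles for r1 and r2 of the untreated WM989 libraries of the treatment experiment. CDKN1A lies above the other 8 members plotted in all WM989 sums but well 5, where CDKN1C lies above it (23.9 against 21.2), and CDK6 lies below 0 in all WM989 sums and above 0 in WM983B (ratio 1.5).

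The members also varied over the cell cycle. The authors' phase call (G1, S or G2M) comes with the cell labels, and the genes it rests on are not given in the sources used here. Phases are compared within each library without a test. CCNG2 and CDKN1B were lowest in S cells and rose to G2M in every WM989 library of both experiments. CCND3, CDK4 and RB1 were higher in S and in G2M cells than in G1 cells in every such library.

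CCNG2 in the 8 treatment libraries had between 2.55 and 3.8 CPM in S cells (median 3), between 4.98 and 7.36 CPM in G1 cells (median 5.94) and between 8.16 and 12.2 CPM in G2M cells (median 9.52). The phases did not overlap. The median ratio of G2M to S cells was 3.1 here and 3.13 in the wells of the first experiment. CDKN1B had medians of 26.9 CPM in S, 33 CPM in G1 and 53.2 CPM in G2M cells, with a median ratio of G2M to S of 1.97 here and 1.96 in the wells. The ranges of its S and G2M cells did not overlap in the treatment libraries. CDKN1C was likewise higher in G2M than in S cells in 8 of 8 libraries of both experiments, at medians of 1.43 and 0.416 CPM in the treatment libraries.

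CCND3 was highest in S cells, with medians of 23.2 CPM in S, 18.2 CPM in G2M and 14 CPM in G1 cells of the treatment libraries, and its order S, G2M, G1 was the same in all 8. CDK4 rose from a median of 122.5 CPM in G1 to 147.8 CPM in S and 150.6 CPM in G2M cells. RB1 rose from 26.9 CPM in G1 to 35.1 CPM in S and 34.7 CPM in G2M cells. CDK6 ran the other way, at 100.5 CPM in G1, 86.3 CPM in S and 79.9 CPM in G2M cells, and was higher in G1 than in either other phase in 8 of 8 treatment libraries. In the wells of the first experiment it was higher in S than in G1 cells in 7 of 8, and within the drug-susceptible cells of these wells it was lower in S than in G1 cells in 7 of 8.

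CCND1 was lower in S and in G2M than in G1 cells in 8 of 8 wells, and in drug-susceptible cells alone it was lower in S cells in 4 of 8 wells and in G2M cells in 8 of 8. In G2M against S cells CCND1 was higher over all cells of the wells in 8 of 8 (median ratio 1.2) and lower in their drug-susceptible cells in 8 of 8 (0.801). In the treatment libraries it was lower than in G1 cells in 6 of 8 for S and in 5 of 8 for G2M cells. Within their drug-susceptible cells CCND1 was higher than in G1 cells in 7 of 8 for S and in 5 of 8 for G2M cells, with median ratios of 1.07 and 1.03, so its order over the phases was not the same in the 2 experiments. CDKN1A within drug-susceptible cells of the treatment experiment was higher in S than in G1 cells in 8 of 8 libraries, with medians of 2.17 and 0.713 CPM and a median ratio of 3.97. It was lower in G2M than in S cells in 8 of 8. The drug-susceptible cells of the wells had that order of S and G1 in 6 of 8. Over all cells of the wells CDKN1A was lower in S than in G1 cells in 7 of 8 (median ratio 0.44) and lower in G2M than in G1 cells in 8 of 8 (0.503), where the median ratio of drug-susceptible cells was 1.07. Over all cells of the treatment libraries it was higher in S than in G1 cells in 6 of 8. The share of primed cells in a phase and a change within a state cannot be told apart in such sums. Within primed cells of the first experiment, with the wells of a replicate summed, CDKN1A had 30.25, 37 and 31.1 CPM in G1, S and G2M cells of r1. In r2 it had 27.7, 37.3 and 29 CPM. CCND1 in these primed cells had 3968, 3371 and 4094 CPM in r1 and 4345, 3939 and 4289 CPM in r2.

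Beside these counts stand the shares of all genes. In the wells 4 members (CCND3, CDK4, CDKN1B and RB1) were higher in G2M than in G1 cells in 8 of 8, beside 25.4% of 12642 genes, and 2 lower, beside 20.4%. For S against G1 the wells gave 3 higher, beside 24.8%, and 4 lower, beside 22.2%, and for G2M against S 4 higher (CCND1, CDKN1B, CDKN1C and CCNG2), beside 19.1%, and 1 lower, beside 17.9%. In the treatment libraries G2M against G1 gave 5 higher, beside 28.9% of 12710 genes, and 1 lower, beside 19%. For S against G1 they gave 3 higher, beside 23.4%, and 3 lower, beside 15%. For G2M against S they gave 2 higher, beside 25.3%, and 1 lower, beside 23.4%. In the treatment libraries CDKN1C was below the minimum level and is not in these counts. These counts are of 9 members in the wells and 8 in the treatment libraries, and they fell on both sides of the shares of all genes.

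In WM983B CCND3 had 32.3, 62 and 50.7 CPM in G1, S and G2M cells, CCNG2 had 11.2, 11.9 and 25.2 CPM, and CDKN1B had 10.1, 9.52 and 14.2 CPM. CDKN1A had 4.33, 13 and 12.1 CPM. The single library gives no replicate check for these.

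**Figure D3:**
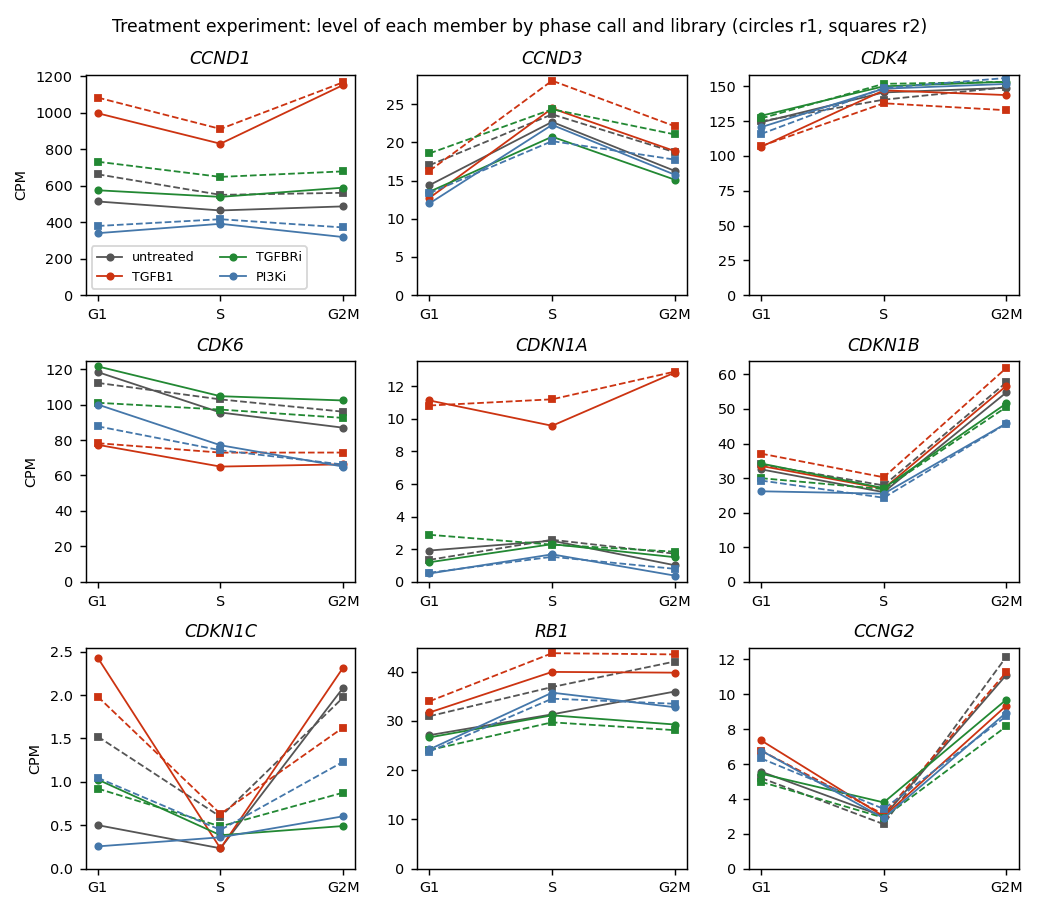
Level of 9 members in CPM (y axes start at 0) in cells called G1, S and G2M (x axis) in each of the 8 treatment libraries, coloured by treatment, with circles and full lines for r1 and squares and broken lines for r2. CCNG2 and CDKN1B dip in S and peak in G2M in all 8 libraries (medians of 3 and 9.52 CPM for CCNG2), and CCND3 peaks in S.

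The third experiment asked what TGFB1, TGFBRi and PI3Ki do to the states. UMIs were added up per library and tested with edgeR's quasi-likelihood test (two-sided, Benjamini-Hochberg over all genes tested), with replicate as a block and 3 residual degrees of freedom. All 3 comparisons share the 2 untreated libraries. CCND2 was too low to be tested, which left 9 members. The p-values rest on the spread between these libraries, which may be technical. The test draws the spread of each gene towards a trend over all genes, so a member's p-value does not measure its own spread alone. In sums over all cells of a library, a change in the share of a state and a change of RNA within its cells cannot be told apart, and the share of primed cells was 2.26% and 4.47% in the untreated, 29.1% and 31.3% in the TGFB1, 2.26% and 4.32% in the TGFBRi and 0.647% and 1.21% in the PI3Ki libraries.

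TGFB1 raised CCND1 and CDKN1A and lowered CDK6. CCND1 stood at 991 and 1059 CPM in r1 and r2 under TGFB1 and at 485.9 and 586.2 CPM in the untreated libraries, a log2 fold change of 0.93 (SE 0.075, edgeR adjusted p = 1.76e-09). CDKN1A stood at 11.2 and 11.6 CPM against 1.87 and 1.96 CPM, a log2 fold change of 2.56 (SE 0.108, edgeR adjusted p = 3.29e-14). CDK6 stood at 70 and 74.9 CPM against 99.8 and 103.5 CPM, a log2 fold change of -0.50 (SE 0.067, edgeR adjusted p = 3.97e-06). In none of the 3 did the treated and untreated libraries overlap. These were 3 of 9 members called, beside 29% of 18389 genes tested, so the share of members called was close to that of all genes. CDKN1C (log2 fold change 0.52, edgeR adjusted p = 0.0735) passed with no filter on low counts, without TGFB1 r2 (log2 fold change 0.996) and without either PI3Ki library, and RB1 (0.16, edgeR adjusted p = 0.0969) without either TGFBRi library.

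PI3Ki moved CCND1 and CDKN1A down. CCND1 stood at 351.9 and 388.8 CPM, a log2 fold change of -0.43 (SE 0.074, edgeR adjusted p = 4.39e-04), and CDKN1A at 0.897 and 0.948 CPM, a log2 fold change of -0.95 (SE 0.148, edgeR adjusted p = 1.38e-04). CDK6 was called as well, at 82.8 and 77.6 CPM with a log2 fold change of -0.24 (SE 0.067, edgeR adjusted p = 0.0188), but not without the replicate block (edgeR adjusted p = 0.104) nor without either untreated or either PI3Ki library. So CDK6 was lower under both TGFB1 and PI3Ki, while CCND1 and CDKN1A went opposite ways. This made 3 of 9 members called, beside 12.7% of genes. CDKN1B (log2 fold change -0.165, edgeR adjusted p = 0.107) passed without either TGFBRi library, and CDKN1C (-0.59, edgeR adjusted p = 0.119) with no filter on low counts and without PI3Ki r2 (log2 fold change -1.37). Under TGFBRi edgeR passed 0 of 9 members, beside 2.53% of genes, while 3 had an unadjusted p under 0.05 (CCND1, CDKN1C and RB1), beside 13% of genes, and DESeq2 called 1 (CCND1). With no filter on low counts these 3 passed, and without TGFBRi r1 CCND1 and RB1 did. CCND1 had 564.4 and 682 CPM there (log2 fold change 0.23, edgeR adjusted p = 0.111) and RB1 29.3 and 27.6 CPM (log2 fold change -0.24, edgeR adjusted p = 0.0728).

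Set directly against PI3Ki, TGFB1 gave 7 of 9 members past the threshold, beside 33.9% of genes. CCND1 (log2 fold change 1.36), CDKN1A (3.51), CDKN1B (0.26), CDKN1C (1.11) and RB1 (0.23) were higher under TGFB1, and CDK4 (-0.23) and CDK6 (-0.26) lower.

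Within drug-susceptible cells CCND1 did not pass the test under TGFB1, with 475.5 and 525 CPM against 443.7 and 497 CPM in untreated libraries (log2 fold change 0.08, SE 0.071, edgeR adjusted p = 0.547). CDK6 was lower by about as much as in all cells, at 71.6 and 75.2 CPM against 100.1 and 104.7 CPM (log2 fold change -0.49, SE 0.068, edgeR adjusted p = 9.43e-06). CDKN1A stood at 2.04 and 1.81 CPM against 1.19 and 1.21 CPM (log2 fold change 0.67, SE 0.155, edgeR adjusted p = 0.0039). Treated and untreated libraries did not overlap for either of these. CDKN1C stood at 1.81 and 1.65 CPM against 0.873 and 1.09 CPM (log2 fold change 0.80, SE 0.211, edgeR adjusted p = 0.0105). These were 3 of 9 members called, beside 14.9% of 17914 genes. The drug-susceptible class pools many clusters of the authors, and a change in their mix and a change within a cluster cannot be told apart in such sums. The CDKN1A and CDKN1C calls were lost under DESeq2 (adjusted p = 0.0556 and 0.0739) and without the r1 library of TGFB1 (edgeR adjusted p = 0.113 and 0.429), where the log2 fold change of CDKN1C was 0.42. That of CDKN1A was also lost without untreated r1 (edgeR adjusted p = 0.0717), and that of CDKN1C without untreated r2 (edgeR adjusted p = 0.0621) or without the block (edgeR adjusted p = 0.138). CCNG2 had 4.33 and 5.6 CPM under TGFB1 against 6.2 and 5.99 CPM and did not pass the test (log2 fold change -0.31, edgeR adjusted p = 0.0601). It passed with no filter on low counts (edgeR adjusted p = 0.0145) and without TGFB1 r2 (log2 fold change -0.52) or either TGFBRi library (edgeR adjusted p from 0.0142 to 0.0167).

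PI3Ki in drug-susceptible cells gave 2 of 9 calls, beside 12.1% of genes, with CCND1 at 345.7 and 370.2 CPM (log2 fold change -0.30, SE 0.071, edgeR adjusted p = 0.00672) and CDK6 at 82.8 and 77.7 CPM (log2 fold change -0.26, SE 0.067, edgeR adjusted p = 0.0128). TGFBRi also gave 2, beside 2.81% of genes, with CCND1 at 517.4 and 607.4 CPM (log2 fold change 0.27, SE 0.071, edgeR adjusted p = 0.0362) and CDKN1C at 0.42 and 0.593 CPM (log2 fold change -0.94, SE 0.252, edgeR adjusted p = 0.0436). All 4 of these calls were lost without the replicate block. That of CCND1 under PI3Ki was also lost without any 1 of the 4 libraries compared, at log2 fold changes from -0.31 to -0.29. The CDK6 call was lost without any of them but untreated r1, at log2 fold changes from -0.27 to -0.21. A fit without 1 of these libraries leaves 1 library in a group, so a call can be lost with little change in the log2 fold change. Under TGFBRi the CCND1 call was lost without either untreated library, TGFBRi r2 or either PI3Ki library, and the CDKN1C call under DESeq2 and without any 1 of the 4 libraries compared. RB1 did not pass under TGFBRi, at 29.1 and 27.4 CPM against 31.4 and 36.7 CPM (log2 fold change -0.25, edgeR adjusted p = 0.0609), but passed with no filter on low counts (edgeR adjusted p = 0.0289), without untreated r1 (edgeR adjusted p = 0.0452) and without TGFBRi r1 (log2 fold change -0.35, edgeR adjusted p = 0.00327). In the PI3Ki libraries CDKN1C stood at 0.386 and 0.881 CPM (log2 fold change -0.46, edgeR adjusted p = 0.224), and without PI3Ki r2 it passed (log2 fold change -1.20, edgeR adjusted p = 0.0312). CDKN1B under PI3Ki (log2 fold change -0.15, edgeR adjusted p = 0.145) passed without either TGFBRi library.

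Within primed cells CCND1 was at 2523 and 2552 CPM under TGFB1 and at 2904 and 3378 CPM in untreated libraries, and it did not pass the test (log2 fold change -0.22, SE 0.136, edgeR adjusted p = 0.333). CDK6 did not pass under TGFB1 either (log2 fold change 0.01, SE 0.148, edgeR adjusted p = 0.974). CDKN1A was at 38.3 and 39 CPM against 41 and 25.4 CPM, with overlap (log2 fold change 0.38, edgeR adjusted p = 0.208). Without untreated r1 its log2 fold change was 0.80 and it passed (edgeR adjusted p = 0.0324), so this value too rested on 1 library. CDKN1B was lower under TGFB1, at 39.5 and 44.2 CPM against 64.1 and 63.6 CPM (log2 fold change -0.52, SE 0.144, edgeR adjusted p = 0.00916). CDKN1C was lower as well, at 1.34 and 0.939 CPM against 2.24 and 7.65 CPM (log2 fold change -2.24, SE 0.541, edgeR adjusted p = 0.00262), with 3 UMIs in the first and 19 in the second of the untreated libraries. Without untreated r2 its log2 fold change was -0.62 (edgeR adjusted p = 0.895), so 1 library decided this value, and the call was also lost without TGFB1 r2 (edgeR adjusted p = 0.24). These were 2 of 9 members, beside 13.3% of 10930 genes, and DESeq2 called 0. The call of CDKN1B was lost with no filter on low counts (edgeR adjusted p = 0.0843) and without any 1 of the 4 libraries compared. Under TGFBRi and PI3Ki 0 members were called in primed cells, beside 0.375% and 1.78% of genes, and at an unadjusted p under 0.05 there were 2 (CDK6 and CDKN1B), beside 8.64% of genes, and 2 (CCND1 and CDKN1A), beside 11.2%. The TGFBRi libraries held 118 and 271 primed cells and the PI3Ki libraries only 25 and 70, so a missing call is no sign that an effect was absent. The primed class of this experiment pools separate clusters of the authors. A change in the mix of these clusters and a change within a cluster cannot be told apart in such sums. Whether an effect differed between the states was not tested.

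**Figure D4:**
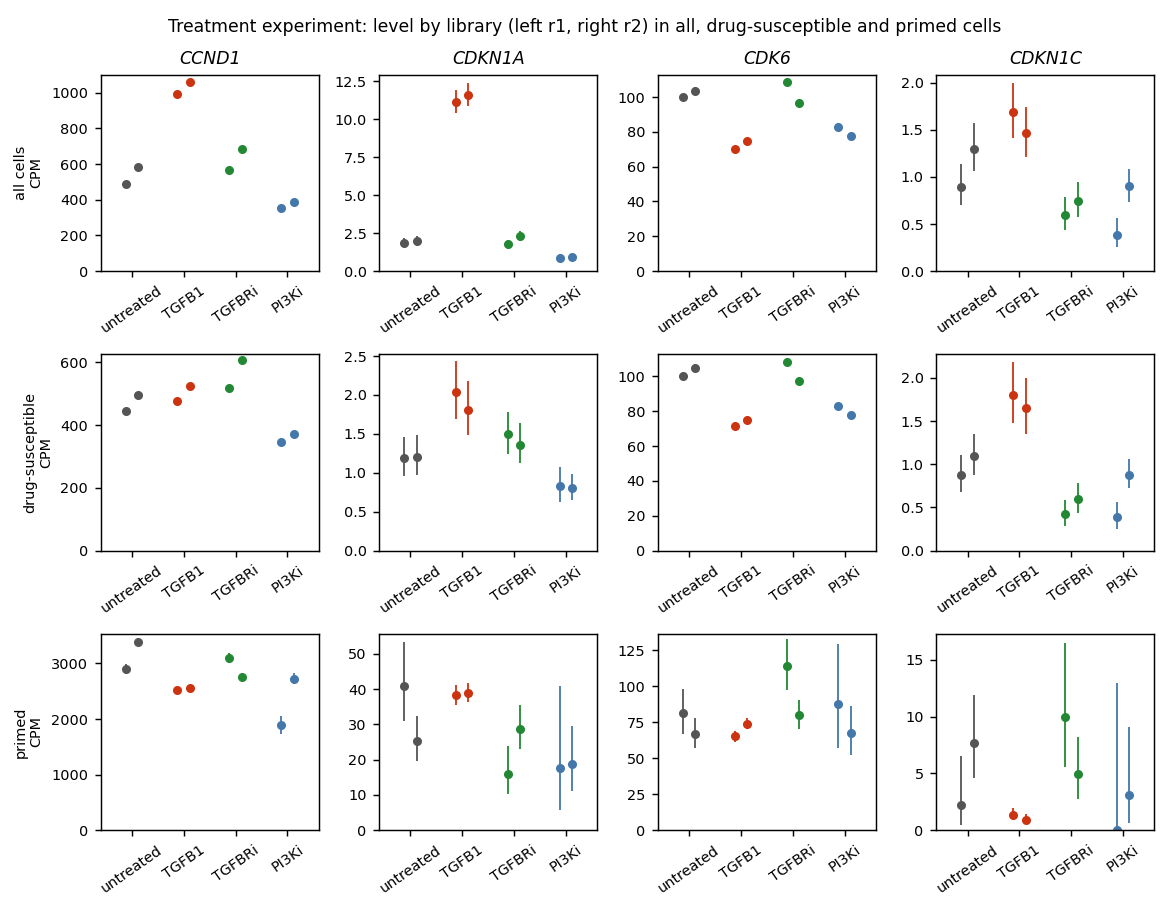
Level of CCND1, CDKN1A, CDK6 and CDKN1C in CPM (y axes start at 0) by treatment (x axis) in all cells, drug-susceptible cells and primed cells (rows), with 1 point for each library (r1 left, r2 right) and exact 95% Poisson intervals as bars. Under TGFB1 CCND1 is near 1000 CPM in all cells (991 and 1059) but within the range of the other libraries in drug-susceptible cells, while CDK6 is lower in both.

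Treatments also moved the phases: 43.6% to 44.1% of cells were called G1 under TGFB1 and PI3Ki, and 31% to 34% in the other libraries. In G1 cells alone TGFB1 gave 6 of 9 calls, beside 32.5% of 15452 genes. CCND1 (log2 fold change 0.83, edgeR adjusted p = 7.86e-08), CDKN1A (2.74, edgeR adjusted p = 6.82e-09), CDKN1C (1.14, edgeR adjusted p = 0.022) and CCNG2 (0.39, edgeR adjusted p = 0.0181) were higher, and CDK6 (-0.57, edgeR adjusted p = 4.52e-06) and CDK4 (-0.22, edgeR adjusted p = 0.0123) lower. The CCNG2 and CDK4 calls were lost without any 1 of the 4 libraries compared (log2 fold change from 0.361 to 0.412 and from -0.2296 to -0.2255). That of CDKN1C was lost without untreated r1 or TGFB1 r1 (log2 fold change 0.63 and 0.53). Under DESeq2 CDKN1C and CCNG2 were not called (adjusted p = 0.08 and 0.203), nor without the block (edgeR adjusted p = 0.102 and 0.0524). CCNG2 pointed down in drug-susceptible cells over all phases (-0.31, above), and the share of primed cells and the change within a state cannot be told apart in the G1 sums. PI3Ki gave 3 calls in G1 cells, beside 12.6% of genes: CCND1 (-0.57, edgeR adjusted p = 7.06e-05) and CDKN1A (-1.45, edgeR adjusted p = 0.0108) were lower, and CCNG2 (0.42, edgeR adjusted p = 0.0245) higher. The CDKN1A and CCNG2 calls were lost without the block and under DESeq2. That of CCNG2 was also lost without any 1 of the 4 libraries compared, and that of CDKN1A without any of them but untreated r2. Under TGFBRi edgeR gave 0, beside 0.958%, with 2 members (CCND1 and RB1) at an unadjusted p under 0.05, beside 10.8% of genes, and 0 called by DESeq2. In S cells CCND1 and CDKN1A rose and CDK6 fell under TGFB1 too, and RB1 rose (log2 fold change 0.27, edgeR adjusted p = 0.0112), which made 4 of 9 beside 19.4% of genes. PI3Ki gave 3 in S cells, with CCND1 (-0.26), CDK6 (-0.32) and CDKN1A (-0.61) lower, beside 9.33% of genes, and TGFBRi gave 0, beside 2.46%, with 1 member (CCND1) at an unadjusted p under 0.05, beside 12.4%. In G2M cells TGFB1 gave 3, with CCND1 (1.15) and CDKN1A (3.21) higher and CDK6 (-0.40) lower, beside 22.1% of genes, and PI3Ki gave 2, with CCND1 (-0.52) and CDK6 (-0.40) lower, beside 7.04%. TGFBRi gave 2 calls there, beside 1.64% of genes, CDKN1C (-1.51, edgeR adjusted p = 0.00633) and RB1 (-0.41, edgeR adjusted p = 0.00447). The alternatives (DESeq2, no block, no filter and left-out libraries) were not run in S or G2M cells, nor for TGFB1 against PI3Ki. How far those calls depend on them was not tested.

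The other genes of the pathway were read from lists over all cells of a library. Of all 18389 genes tested, edgeR called 16.3% higher and 12.7% lower under TGFB1, 1.09% higher and 1.45% lower under TGFBRi, and 5.83% higher and 6.83% lower under PI3Ki, and the counts below stand beside these shares. All 4 INK4 inhibitors passed the test under TGFB1, in different directions: CDKN2A (log2 fold change -0.86) and CDKN2B (-0.58) fell, and CDKN2C (0.53) and CDKN2D (0.26) rose, with edgeR adjusted p from 3.34e-08 to 0.00744. Under PI3Ki CDKN2B (0.35, edgeR adjusted p = 0.00303) rose and CDKN2D (-0.23, edgeR adjusted p = 0.041) fell. Under TGFBRi 0 of 4 passed. Between the states of WM989, CDKN2B stood at 41.8 CPM in the primed and 10.7 CPM in the drug-susceptible state and CDKN2C at 46.3 and 14.9 CPM, the 2 of 4 past a ratio of 1.5 in both replicates. CDKN2B was thus higher in primed cells and lower under TGFB1.

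Of 8 late G1 cyclins and kinases, 4 fell and 0 rose under TGFB1 (median log2 fold change -0.17), among them CDK2 (-0.52, edgeR adjusted p = 4.28e-06), CDC25A, the phosphatase that activates CDK2 (-0.33, edgeR adjusted p = 0.00107), and CCNH (-0.31, edgeR adjusted p = 0.00337). CDK2 stood at 18.1 CPM in the primed and 139.1 CPM in the drug-susceptible state of WM989. It overlaps PMEL, a melanocyte pigment gene, on the opposite strand at its 3′ end, and PMEL moved with it, at 66.8 and 2158 CPM. The use of strand in the counting is not stated in the sources used here, and the part of PMEL reads in the CDK2 counts was not tested. Under PI3Ki PMEL rose by 0.62 on the log2 scale, and CDK2 did not pass the test (0.17, edgeR adjusted p = 0.122). Of 8 genes of the turnover of D cyclins and CIP/KIP proteins, 2 fell under TGFB1, SKP2, which marks p27 for destruction (-0.53, edgeR adjusted p = 2.35e-06), and FBXO4 (-0.30, edgeR adjusted p = 0.0151), and 0 moved under TGFBRi or PI3Ki.

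Among 12 pocket proteins and E2F factors other than RB1, E2F7, a repressor of E2F targets (log2 fold change 0.46), and E2F5 (0.27) rose under TGFB1 and TFDP1 (-0.22) fell, while under PI3Ki E2F7 (-0.34) and TFDP1 (-0.24) fell. Of the 9 genes of the DREAM complex and mitotic activators, 0 were called under TGFB1 or TGFBRi and 1 under PI3Ki (MYBL1, -0.30, edgeR adjusted p = 0.00462). Of 22 p53 targets tested other than CDKN1A, 6 rose and 3 fell under TGFB1 (median log2 fold change 0.04), with BBC3 (-0.68) and CCNG1 (-0.41) lower and PHLDA3 (0.47) higher. Of 17 FOXO targets 12 rose and 1 fell under TGFB1, with TXNIP (1.53), FOXO1 (1.97) and YPEL3 (1.39) the smallest in p, and 4 rose and 3 fell under PI3Ki, TXNIP (0.88) and ERBB3 (0.57) among those that rose. The median of all genes tested was 0.0059 under TGFB1 and 0.0026 under PI3Ki.

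Of 14 TGF-beta targets 12 rose and 2 fell under TGFB1 (median log2 fold change 1.55, with PMEPA1 at 6.08) and 9 fell under TGFBRi (ID3 at -2.97). Of 16 genes of the ERK output, CCND1 included, 5 rose and 3 fell under TGFB1, with IER3 (1.03) higher and ETV4 (-0.42) lower, and under PI3Ki 3 rose and 4 fell, FOSL1 (-0.52) among the latter. Of 43 genes listed for S phase 18 fell and 1 rose under TGFB1, and of 54 genes listed for G2M 27 fell and 0 rose under PI3Ki. Whether the authors' phase call used these genes is not given in the sources used here. Of the 6 primed markers 5 rose under TGFB1 and 6 fell under PI3Ki, as did the share of primed cells.

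ATAC-seq read the accessibility of the members' starts in the sorted populations. The authors' peak caller gave each peak a fold enrichment over its local background, and the highest peak within 1000 bases of a start was taken. Of the 10 members 9 had such a peak in all 12 libraries, and CCND2 had none in any. A peak lay over the windows of CDKN1A, CDKN1B, CCNG2 and CDK4 printed above in 12 of 12 libraries and over that of CDK6 in 11.

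CDKN1A had fold enrichments of 17, 17.4 and 23.2 in Mix, 22.2, 30.7 and 20.6 in EGFR-high, 33, 33.7 and 27.3 in NGFR-high and 34.8, 25.5 and 21.3 in EGFR/NGFR-high libraries. All NGFR-high libraries were above all Mix libraries, and the other sorts overlapped Mix. By limma, on log2 values centred on each library's median, it was higher than Mix by 0.40 in EGFR-high, 0.56 in NGFR-high and 0.42 in EGFR/NGFR-high cells (limma adjusted p = 0.293, 0.126 and 0.268), so it did not pass the threshold in any sort.

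CDKN1C had 8.96, 6.6 and 8.23 in Mix, 9.82, 11.8 and 10.3 in EGFR-high, 10.7, 13.1 and 13.6 in NGFR-high and 12.2, 9.45 and 12.4 in EGFR/NGFR-high libraries. No library of these 3 sorts overlapped Mix. The log2 differences were 0.49, 0.50 and 0.45, with limma adjusted p of 0.195, 0.161 and 0.215. CDKN1B differed by 0.37 in EGFR-high cells (limma adjusted p = 0.219).

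CCND1 had 84.7, 85.3 and 92.9 in Mix and 93.9, 93.1 and 87.1 in EGFR-high libraries. In NGFR-high libraries it had 90.7, 82.2 and 83.2, and in EGFR/NGFR-high libraries 103.5, 99.7 and 96.8. All EGFR/NGFR-high libraries were above all Mix libraries, and the other sorts overlapped Mix. The log2 differences of CCND1 were 0.12, -0.19 and 0.12 in EGFR-high, NGFR-high and EGFR/NGFR-high cells (limma adjusted p = 0.698, 0.483 and 0.705). CDK6 spread widely within each sort, from 28.7 to 56.1 in Mix alone.

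By limma 0 of 9 members passed in any sort, beside 0.245%, 0.617% and 0.752% of 12633 genes in EGFR-high, NGFR-high and EGFR/NGFR-high cells. At an unadjusted p under 0.05 there were 3, 3 and 2 members, beside 11.7%, 11.8% and 11.1% of genes. On simulated data of the EGFR-high comparison over these genes the same test recovered 27% of log2 changes of 0.5 and 92% of log2 changes of 1, and the differences of CDKN1A and CDKN1C were of about the smaller size.

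**Figure D5:**
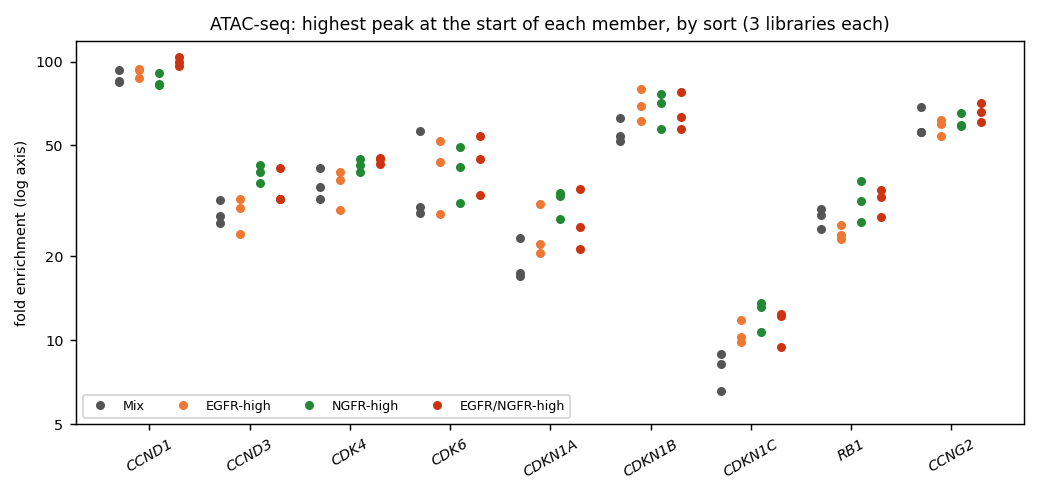
Fold enrichment of the highest ATAC-seq peak within 1000 bases of the start (y axis, log) for 9 members (x axis), with 1 point for each of the 3 libraries of each sort. The CDKN1C points of the other 3 sorts (9.45 to 13.6) lie above those of Mix (6.6 to 8.96). For CCND1 the EGFR/NGFR-high points (96.8 to 103.5) lie above those of Mix, and those of EGFR-high and NGFR-high overlap Mix.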

How the data were processed

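Single-cell values are raw UMI counts that the authors deposited after running Cell Ranger against hg38 (version and annotation not given in the sources used here) and removing low-quality cells and likely doublets with Seurat, with each cell's library, cluster, state and phase. For ATAC-seq the authors deposited MACS2 2.1.1.20160309 peak lists of each library (Bowtie2 2.3.4.1, SAMtools 1.1), whose fold enrichment is a ratio over local background and whose −log10 q-value was used for 1 alternative.

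These counts were added up per library, well, state or phase and scaled to CPM. Intervals (Poisson for CPM, Clopper-Pearson for percents, at 95%) cover counting error only, and a count of 0 was read as up to 3 counts. A doublet caller was not run, and cells were thinned to 10000, 30000 and 5000 UMIs in the 3 experiments to compare shares, which left out 33 cells of the third.

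The treatment tests used edgeR 4.0.16 (filterByExpr, TMM) under R 4.3.3. Same-numbered replicates deviated together in the treatment experiment, with correlations from 0.256 to 0.365 between treatments, and by the study's methods each replicate culture was divided over the 4 treatments. Peaks were tested with limma 3.58.1 over genes with a peak in all 12 libraries, and starts come from GENCODE on hg38. On simulated data of TGFB1 against untreated with 18013 genes, edgeR recovered 97% of log2 changes of 0.5. These changes were planted in better-expressed genes only, with a fixed spread and no replicate effect. The share recovered therefore does not cover low members such as CDKN1A and CDKN1C. DESeq2 1.42.0, other scaling, no filter, no block and left-out libraries were alternatives. For the treatment tests they were not run in S or G2M cells, nor for TGFB1 against PI3Ki.

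Totals per library ran from 35882876 to 177318308 UMIs in the first, and from 70239657 to 122420544 in the third experiment, and WM983B had 102738398. The members and the 17 lists were chosen with earlier results of these data known. The text names all members, at most 3 genes of a list by smallest adjusted p in a comparison, every INK4 inhibitor and the 2 genes most like each member, plus the neighbours of overlapping genes, chosen later.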

Additional observations from a re-analysis of the deposited data

Results flagged for a closer look

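The ratio of CDKN1C between primed and drug-susceptible cells was far from the other wells in 1 of the 8 wells of WM989. In the first r2 well it was 23.9, while the other 7 wells lay between 0.709 and 5.17. The well had 78 UMIs of CDKN1C in 325 primed cells and 1 UMI in 83 drug-susceptible cells, and the 95% interval of the ratio from counting alone runs from 4.17 to 956. In all 27 groups of samples were looked at in this way, and chance sets off about 1 in 20 of them.

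The ratio of CDK6 was 1.5 in WM983B, above 1, while it was below 1 in all 8 WM989 wells, from 0.205 to 0.467. The difference was not tested, since WM983B has 1 library.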

How the results depend on the processing

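Of the counts of members, 181 values under an alternative stayed within 1.5 times the main count and 36 did not, and no treatment effect or state ratio changed sign where it was called. In drug-susceptible cells only, the median ratio of CCND1 in G2M against S cells of the wells turned from 1.2 to 0.801 and that of CDKN1A in G2M against G1 cells from 0.503 to 1.07. With DESeq2 the members called were 1 under TGFBRi in all cells (0 in the main analysis), 1 under TGFB1 (3) and 1 under TGFBRi (2) in drug-susceptible cells, 1 under PI3Ki in G1 cells (3) and 0 under TGFB1 in primed cells (2). With no filter on low counts they were 3 under TGFBRi in all cells and 1 under TGFB1 in primed cells. With no replicate block they were 0 under TGFBRi and 0 under PI3Ki in drug-susceptible cells, 1 under PI3Ki in G1 cells, 3 under TGFB1 and 2 under PI3Ki in all cells. Leaving out 1 library at a time gave 0 to 2 under TGFBRi in all cells (2 without TGFBRi r1). In drug-susceptible cells it gave 1 to 4 under TGFB1 (1 without TGFB1 r1), 0 to 2 under TGFBRi (0 without untreated r2 or TGFBRi r2, 1 without untreated r1 or either PI3Ki library) and 0 to 3 under PI3Ki (0 without untreated r2 or PI3Ki r1, 1 without untreated r1 or PI3Ki r2). In G1 cells it gave 3 to 6 under TGFB1 (3 without untreated r1 or TGFB1 r1) and 1 to 3 under PI3Ki (1 without untreated r1 or either PI3Ki library). In primed cells it gave 0 to 2 under TGFB1 (0 without untreated r2 or TGFB1 r2, 1 without TGFB1 r1). The cause was not tested. The alternatives in primed cells, and those without shared cell barcodes, were chosen after seeing the data.

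In G1 cells only, or with a ratio threshold of 2, 2 members were higher in primed WM989 cells (4 in the main analysis, 4 to 5 without 1 replicate), and with that threshold 0 in WM983B (3). In drug-susceptible cells only, members lower in 8 of 8 wells were 1 for G2M against G1 (2) and 2 for S against G1 (4), and in the treatment libraries 2 for G2M against S (1). Thinned to a fixed number of UMIs, 7 members had a higher share in primed cells of the treatment experiment (4 unthinned), whose cells are shallower. For ATAC-seq the numbers do not pair the libraries (correlations from -0.0499 to 0.129), and a replicate block gave 0 calls in each sort. Low counts limit CDKN1C and CCND2 most.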
